A study of Mus musculus with 6 samples.

Results

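Transcription factors that set up and maintain the identity of sensory neurons were followed in dorsal root ganglia (DRGs) of mice fed LBP. The members are Pou4f1, Pou4f2, Pou4f3, Isl1, Runx1, Tlx3, Drgx, Prdm12, Neurod1 and Neurog1, chosen by gene name, and all 10 of 10 were found among the 24623 genes tested. Of them, 9 stand in the deposited table under these symbols, and Drgx stands there under its older symbol Prrxl1. L4/5 DRGs were taken from male mice of the C57BL/6 strain, wild-type and 8 to 12 weeks old, which received LBP, the polysaccharides of wolfberry (Lycium barbarum), by mouth at 100 mg/kg for 13 days. The controls were mice of the same strain, sex and age given PBS, the vehicle. Each group had 3 arrays (GeneChip Mouse Gene 2.0 ST). The methods name 3 separate groups of mice, with n = 3 per group, and call the 3 experiments biologically independent. They do not say outright whether an array pools the mice of a group. The unit behind every p-value here is therefore the array.

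Sensory neurons of the DRG arise from neural crest cells through proneural factors such as Neurog1 and Neurod1, which act early and are then switched off. Pou4f1 (also called Brn3a) and Isl1 are then expressed in nearly all sensory neurons, where they end the early programme and open the programmes of the neuronal subtypes. Runx1, Prdm12, Tlx3 and Drgx act further along, mostly in the lineage of nociceptors, the neurons that sense painful stimuli, and several of these factors are still made in the adult ganglion.

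Of the 10 factors, 0 passed an adjusted p under 0.05 between LBP-treated and PBS-treated DRGs, as 0.00812% of all genes did. Drgx, which encodes a paired-type homeodomain protein of sensory neurons and of their targets in the dorsal horn, had the smallest p-value of the 10. Its log2 intensity was lower on every LBP array than on every PBS array, at 0.85-fold of the PBS level. Pou4f3 was the other member whose groups did not overlap, at 1.14-fold of the PBS level, and 9.63% of all genes had groups that did not overlap. Pou4f1, Isl1, Runx1, Prdm12, Tlx3, Pou4f2, Neurod1 and Neurog1 had overlapping groups.

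The sequence before the RefSeq start of Drgx is shown because this was the member with the smallest p-value, and that of Isl1 because Isl1 marks nearly all neurons of the ganglion. Both are 250 bases of GRCm38.p6 read 5′ to 3′ on the gene's strand. Capitals mark matches to CANNTG, the E-box bound by proteins such as Neurog1 and Neurod1, and to TGTGGT, the core bound by Runx proteins. A core bound by many homeodomain proteins, TAATTA, was searched as well, and matches on either strand were counted.
Drgx, chr14:32599677-32599926, plus strand: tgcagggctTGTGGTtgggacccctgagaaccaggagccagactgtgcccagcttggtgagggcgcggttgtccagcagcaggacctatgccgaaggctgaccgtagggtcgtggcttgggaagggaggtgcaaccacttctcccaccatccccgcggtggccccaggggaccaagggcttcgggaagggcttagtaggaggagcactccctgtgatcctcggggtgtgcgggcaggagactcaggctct
Isl1, chr13:116309689-116309938, minus strand: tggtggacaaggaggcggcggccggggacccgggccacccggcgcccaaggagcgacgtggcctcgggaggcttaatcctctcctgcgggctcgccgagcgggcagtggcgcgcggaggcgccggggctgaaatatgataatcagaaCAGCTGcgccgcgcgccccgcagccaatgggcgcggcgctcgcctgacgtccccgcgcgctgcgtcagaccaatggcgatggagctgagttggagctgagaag
The Drgx window held 1 TGTGGT, starting 241 bases before the start, and 0 matches to CANNTG. The Isl1 window held 1 CANNTG, starting 103 bases before the start, and 0 matches to TGTGGT. Neither window held TAATTA. Among 32851 RefSeq promoter windows of this length, 66.2% held CANNTG, 14% held TGTGGT and 4.84% held TAATTA. Longer transcript models of Drgx begin further upstream, so that all 250 bases of its window lie within the annotated gene. A match is a description of letters and not of binding, which was not measured.

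Log2 intensity of Drgx, given to 3 decimals because its spread was small, was 8.973, 8.969 and 8.996 on LBP replicates 1 to 3 and 9.215, 9.225 and 9.192 on PBS replicates 1 to 3. The groups were therefore 0.20 apart, while the values within a group spanned 0.03. The LBP mean was 8.98 ± 0.01 and the PBS mean 9.21 ± 0.02 (SD, n = 3). The log2 fold change of LBP against PBS was -0.23 (standard error 0.09, 95% confidence interval -0.43 to -0.03, adjusted p = 0.9996 from limma). Its unadjusted limma p was 0.0268, and its two-sided exact permutation p was 0.1, the smallest that 3 arrays against 3 can give. The adjusted p was 0.9996 for each of the other 9 members too. Drgx was the only one of the 10 members with an unadjusted p under 0.05 in either direction, a threshold that 4.72% of all genes passed and 2.65% passed as lower after LBP. At an adjusted p under 0.05 there were 0 of 10 members, against 2 of all 24623 genes (0.00812%), the gene models Gm3893 (log2 fold change 2.55) and 4933409K07Rik (1.24).

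The spread of Drgx within groups was unusually small, and the p-value depended on how that spread was handled. Its pooled SD of 0.02 was matched or undercut by 11 genes of 24623, itself included. Limma borrows spread from other genes and so gave it a standard error of 0.09. With the variance of each gene taken alone, an alternative chosen after seeing the data, the standard error was 0.013, and Drgx ranked at 1 of 24623 genes by p. The adjusted p was 0.825 there, and no gene passed the adjustment (0 genes, with 4.74% of genes at an unadjusted p under 0.05). With limma the same gene ranked at 651. With each array left out in turn, the log2 fold change lay between -0.24 and -0.22. The unadjusted p of limma was no longer under 0.05 when LBP replicate 1 or any 1 of the PBS replicates was left out.

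**Figure D1:**
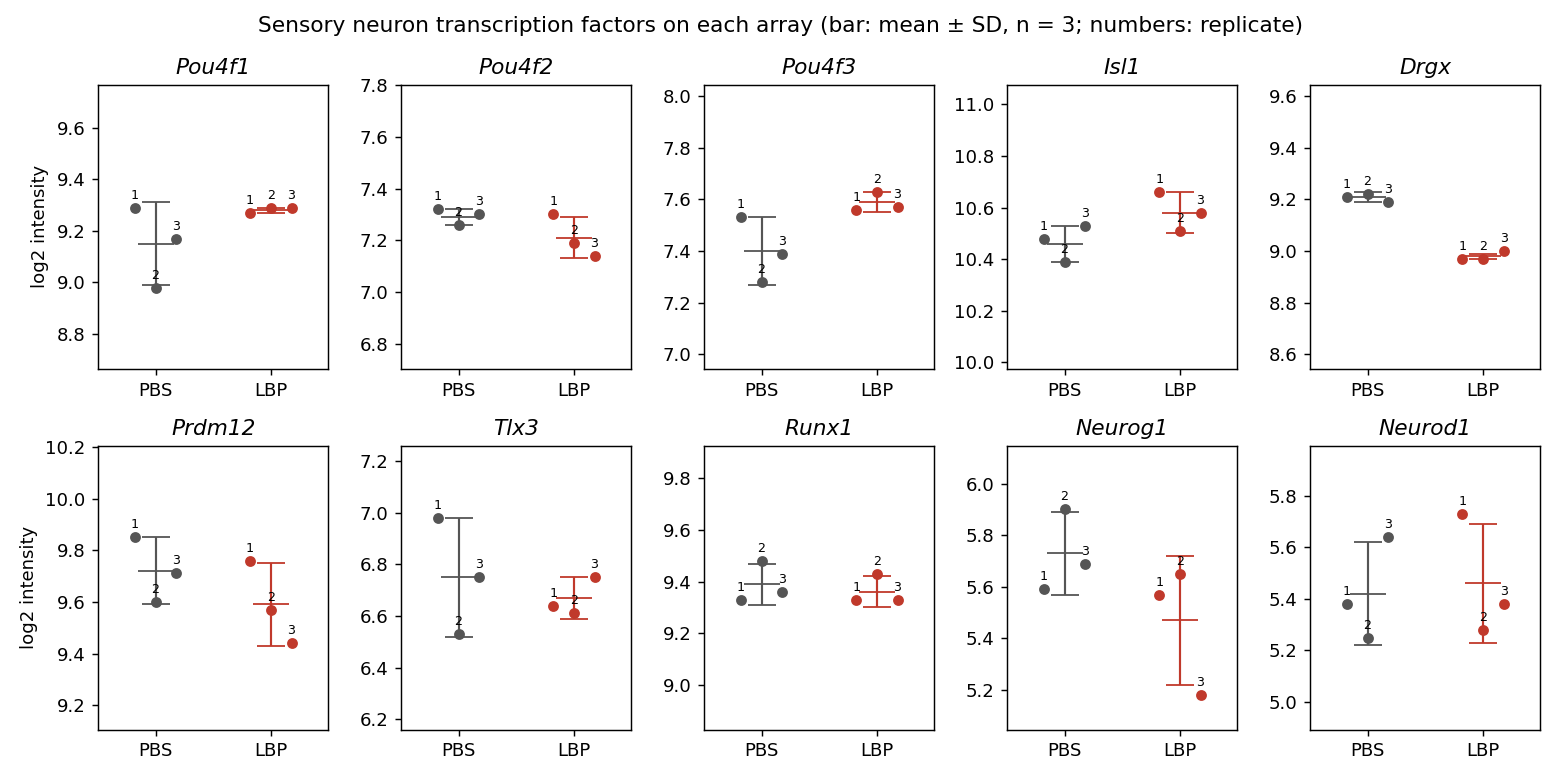
Log2 intensity of each member (y axis, a span of 1.1 log2 units in every panel) on the PBS arrays in grey and the LBP arrays in red, with points numbered by replicate and bars for the mean ± SD (n = 3). Drgx is at 8.969 to 8.996 on LBP arrays and 9.192 to 9.225 on PBS arrays, and Pou4f3 is the only other panel without overlap.

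The POU4 factors are closely related homeodomain proteins, of which Pou4f1 is the main one in DRG neurons, Pou4f2 is best known from retinal ganglion cells and Pou4f3 from hair cells of the inner ear. Log2 intensity of Pou4f1 was 9.27, 9.29 and 9.29 after LBP and 9.29, 8.98 and 9.17 after PBS, so that PBS replicate 1 reached the LBP values. The log2 fold change was 0.13 (95% confidence interval -0.10 to 0.37, exact permutation p = 0.4). Pou4f3 was at 7.56, 7.63 and 7.57 after LBP and 7.53, 7.28 and 7.39 after PBS. Its groups were 0.03 apart, and its log2 fold change was 0.19 (95% confidence interval -0.03 to 0.42, exact permutation p = 0.1). Without PBS replicate 1 it was 0.26, with an unadjusted p under 0.05. Drgx and Pou4f3 were the 2 of 10 members whose groups did not overlap, which held for 9.63% of all genes. Pou4f2 was at 7.30, 7.19 and 7.14 after LBP and 7.32, 7.26 and 7.30 after PBS, with the lowest values on LBP replicates 2 and 3. Its log2 fold change was -0.08 (95% confidence interval -0.29 to 0.13, exact permutation p = 0.3).

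Isl1, a LIM-homeodomain protein that works with Pou4f1, was at 10.66, 10.51 and 10.58 after LBP and 10.48, 10.39 and 10.53 after PBS. LBP replicate 2 lay below PBS replicate 3, and the log2 fold change was 0.12 (95% confidence interval -0.10 to 0.34, exact permutation p = 0.2). On the fold scale this interval runs from 0.94 to 1.26.

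Among the factors of the nociceptor lineage, Runx1 is required for non-peptidergic nociceptors and is also made by blood cells. Runx1 was at 9.33, 9.43 and 9.33 after LBP and 9.33, 9.48 and 9.36 after PBS, with the highest value on PBS replicate 2. The log2 fold change was -0.03 (95% confidence interval -0.24 to 0.19, exact permutation p = 0.6), and 0.02 without PBS replicate 2. Prdm12, a PR-domain protein without which nociceptors do not form, was at 9.76, 9.57 and 9.44 after LBP and 9.85, 9.60 and 9.71 after PBS, with overlapping groups. Its log2 fold change was -0.13 (95% confidence interval -0.39 to 0.13, exact permutation p = 0.4). Tlx3, a homeodomain protein that acts with Runx1 in sensory neurons and with Drgx in the dorsal horn, was at 6.64, 6.61 and 6.75 after LBP. After PBS it was at 6.98, 6.53 and 6.75, so that its highest and its lowest value were both PBS arrays. Its log2 fold change was -0.08 (95% confidence interval -0.36 to 0.19, exact permutation p = 0.7), and 0.03 without PBS replicate 1.

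The proneural factors Neurog1 and Neurod1 were dim. The table holds no detection calls, and 1429 olfactory and vomeronasal receptor genes, which sensory neurons of the DRG are not known to use, served as a rough mark for background, with 95% of them under a mean of 5.71. The means of Neurod1 and Neurog1 lay below that mark and the other 8 members above it. Different probes set the scale of each gene, so that this says how bright a probe set was and not how much RNA there was. Neurog1 was at 5.57, 5.65 and 5.18 after LBP and 5.59, 5.90 and 5.69 after PBS, with LBP replicate 3 apart from the rest. Its log2 fold change of -0.26 (95% confidence interval -0.58 to 0.05, exact permutation p = 0.2) was -0.12 without that array. It was -0.35 without LBP replicate 2, with an unadjusted p under 0.05. Neurod1 was at 5.73, 5.28 and 5.38 after LBP and 5.38, 5.25 and 5.64 after PBS, so that the groups overlapped. The log2 fold change was 0.04 (95% confidence interval -0.28 to 0.36, exact permutation p = 0.7). Leaving out LBP replicate 1 gave -0.09, and leaving out PBS replicate 2 gave -0.05.

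**Figure D2:**
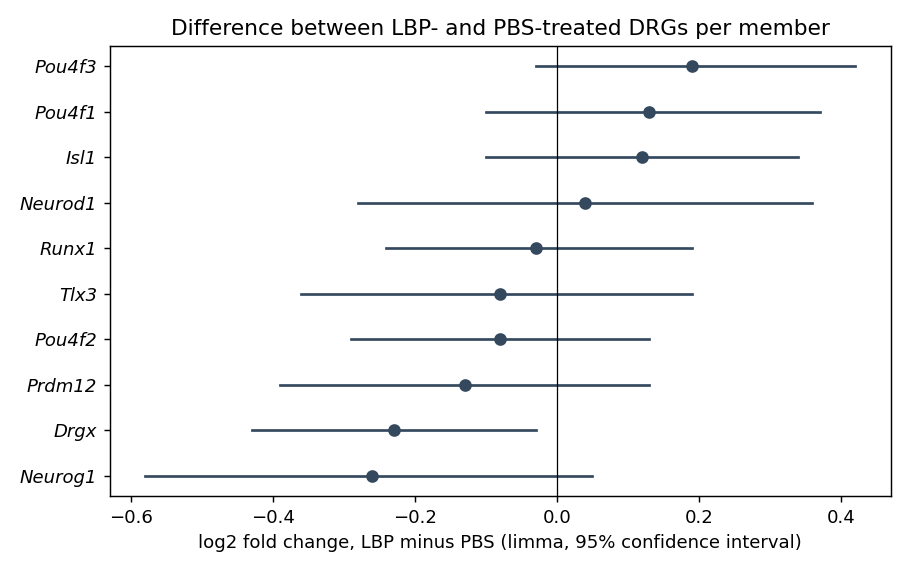
Log2 fold change of LBP against PBS (x axis) for the 10 members (y axis, sorted), with points for the estimate and lines for the 95% confidence interval from limma on 3 arrays per group. The interval of Drgx, -0.43 to -0.03, is the only one that does not cross 0, and the widest reach is that of Neurog1, down to -0.58.

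Taking the members as a group, 4 of the 10 log2 fold changes were positive and 6 negative, with a median of -0.05 beside 0.00 for all genes and a range of -0.26 to 0.19. The median size of the change was 0.12 for the members and 0.08 for all genes, and the median pooled SD was 0.10 for the members and 0.14 for all genes. Measured from the PBS mean of the gene, the median member stood at 0.03, -0.09 and -0.05 on LBP replicates 1 to 3 and at 0.02, -0.10 and -0.01 on PBS replicates 1 to 3. The treatments overlapped in this measure.

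A bulk ganglion cannot tell fewer cells of a type from less RNA per cell, and the markers of cell types were therefore read beside the members. Of the 12 sensory neuron markers, which include advillin (Avil) and peripherin (Prph), 0 had an unadjusted p under 0.05 and all were above the background mark, as the tissue label requires. Their median deviation from the PBS mean lay between -0.09 and 0.05 on LBP arrays and between -0.07 and 0.09 on PBS arrays. With every array shifted by these markers, the log2 fold change of Drgx was -0.20 and its unadjusted p no longer under 0.05. Satellite glia markers, at a median deviation of 0.06 to 0.14 on LBP arrays and -0.04 to 0.04 on PBS arrays, included 2 of 6 that were higher at an unadjusted p under 0.05, Cdh19 (0.49) and Kcnj10 (0.29). Fibroblast markers ranged from -0.44 to -0.06 on LBP arrays and from -0.16 to 0.18 on PBS arrays, with Dpt (-0.40) and Col3a1 (-0.43) lower at that threshold, 2 of 8. The part of these cells in the values of Drgx was not tested.

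The median of the central nervous system markers stood apart on LBP replicate 2. It was 1.07 above the PBS mean there and -0.07 to 0.05 on the other 5 arrays. Mobp, a gene of myelin-forming oligodendrocytes, was at 9.0 there and 5.97 to 6.38 elsewhere. Not all of the list rose on LBP replicate 2. Gad1 was at 5.78, Lbx1 at 4.78 and Pax2 at 5.20, against 5.80 to 6.05, 4.47 to 4.87 and 5.20 to 5.42 on PBS arrays. Lbx1 and Pax2 were below the background mark. The other markers of the list were above every PBS value on LBP replicate 2. Drgx and Tlx3 are also made by neurons of the dorsal horn. On LBP replicate 2 Drgx was at -0.24 and Tlx3 at -0.15 relative to the PBS mean. Without this array the log2 fold change was -0.23 for Drgx and -0.05 for Tlx3, and the part of spinal cord tissue in their values was not tested. Schwann cell and myelin markers were also highest on that array, at 0.45 against -0.25 to 0.01 elsewhere. In both lists 0 genes, of 10 and of 8, had an unadjusted p under 0.05. Markers of macrophages and blood cells, the other source of Runx1, ranged from -0.20 to 0.03 on LBP arrays and from -0.12 to 0.20 on PBS arrays, and 0 of 10 had an unadjusted p under 0.05. They were highest on PBS replicate 2, as Runx1 was, and their part in its level was not tested. Skeletal muscle markers were at -1.03 on PBS replicate 2 and -1.14 on LBP replicate 2, and between -0.35 and 0.52 on the other arrays (0 of 8 at that threshold). Among neutrophil and bone marrow markers Elane (-0.28) was lower at an unadjusted p under 0.05, 1 of 8. Of 7 markers of sympathetic neurons only Th, which sensory C-low-threshold mechanoreceptors also make, was above the background mark. Th (-0.68) was lower at an unadjusted p under 0.05.

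**Figure D3:**
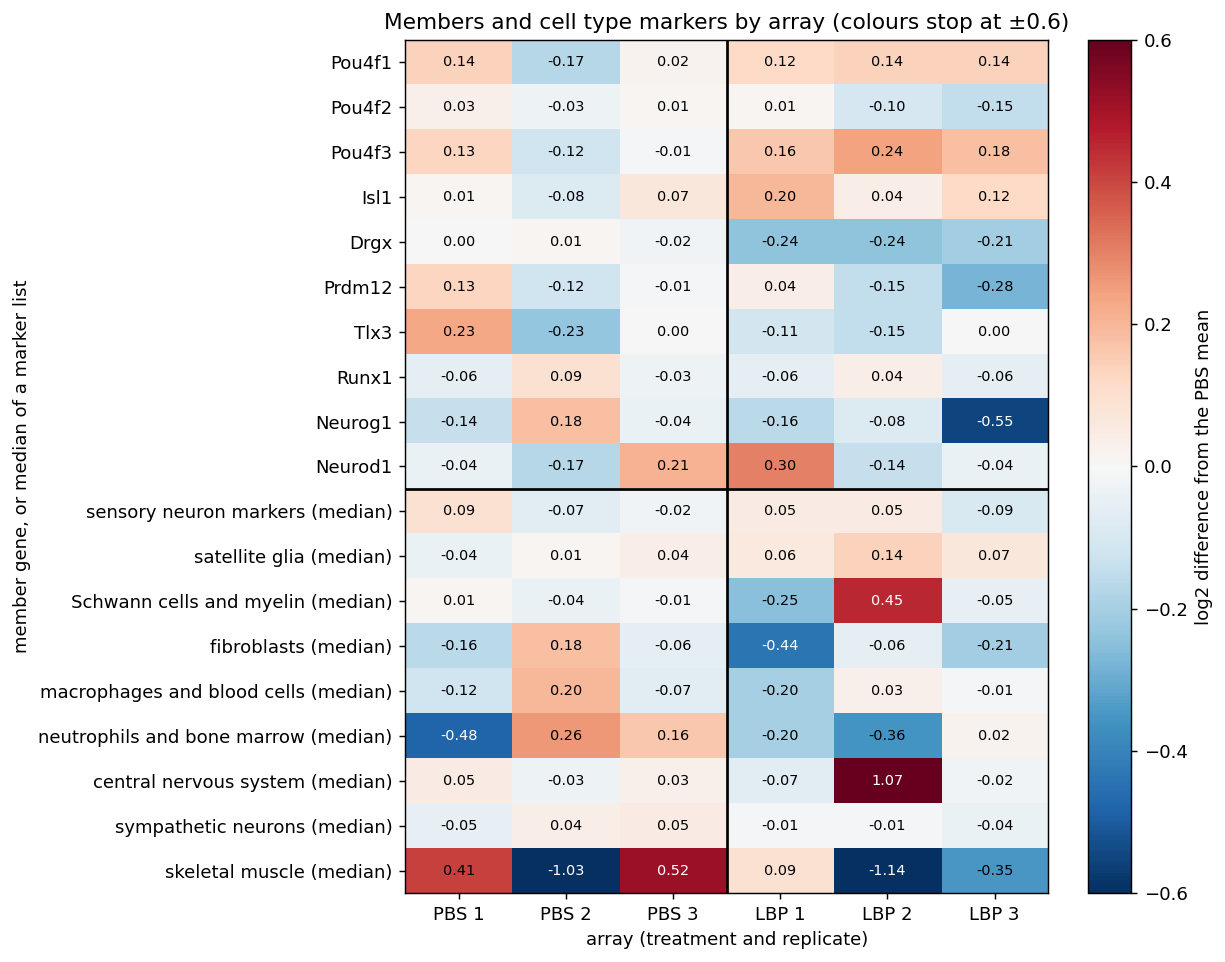
Log2 difference from the PBS mean for each member (upper rows) and for the median of each marker list (lower rows) on the 6 arrays (columns), with the value printed in each cell and colours that stop at ±0.6. Drgx is between -0.24 and -0.21 on the 3 LBP arrays and between -0.02 and 0.01 on the PBS arrays, and the central nervous system markers reach 1.07 on LBP replicate 2 alone.

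Relatives, fellow transcription factors and partners of the members were read next. Of 41 genes in 3 lists, 3 were lower and 0 higher at an unadjusted p under 0.05, beside 2.65% of all genes that were lower. The groups did not overlap for 7 of the 41, beside 9.63% of all genes, and the median log2 fold change was -0.06. Among 13 family relatives of the members, Prdm8, a PR-domain relative of Prdm12, was lower at an unadjusted p under 0.05 (-0.24, 95% confidence interval -0.47 to -0.01). The highest value in that list was 0.32 for Runx3, the Runx protein of proprioceptors, with overlapping groups, and Neurod6, a dim gene, was at -0.24. Isl2 was at -0.06. Among 18 other factors of sensory neuron development, 1 was lower at an unadjusted p under 0.05 and is not named here. Eya1 had the lowest value, -0.48, with PBS replicate 2 at 8.55 and LBP replicate 1 at 7.20 as its extremes. Its groups overlapped and its unadjusted limma p was not under 0.05. Zeb2 had the highest value, 0.18. Etv1, Maf and Shox2, factors of large-diameter neurons, were at -0.04, 0.04 and 0.01. Mafa and Cux2 of the same list were at 0.11 and 0.16. Of the 18 values in that list, 8 were positive and 10 negative. Among 10 binding partners and cofactors, Pbx3, a homeodomain cofactor, was lower at an unadjusted p under 0.05 (-0.25, 95% confidence interval -0.48 to -0.03). Cbfb, the obligate partner of Runx proteins, was at 0.01, Ldb1, which binds LIM-homeodomain proteins such as Isl1, had the highest value at 0.17, and Ehmt2, a histone methyltransferase that works with Prdm12, was at 0.03.

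Some of the genes that need Runx1 in nociceptors had lower values after LBP, beside a log2 fold change of -0.03 for Runx1 itself. Of 11 such genes, 4 were lower and 0 higher at an unadjusted p under 0.05, beside 2.65% of all genes, and 9 had a negative log2 fold change. Their median log2 fold change was -0.15. The list was chosen with earlier results of these data known, and no test of the list was run. The count is therefore a description and not independent support for a change of these genes. The 4 genes were Trpa1 (-0.37), an irritant-gated channel, Ret (-0.30), a receptor for ligands of the GDNF family, Scn11a (-0.24), the sodium channel Nav1.9, and Mrgpra1 (-0.28), a receptor of itch-sensing neurons. Log2 intensity of Ret was 11.84, 11.69 and 11.60 after LBP and 12.11, 11.89 and 12.04 after PBS. Trpa1 was at 9.33, 8.95 and 9.24 after LBP and 9.46, 9.62 and 9.56 after PBS. In both genes every LBP value lay below every PBS value. Mrgprd, the marker of the main non-peptidergic class, was at -0.13, P2rx3 at -0.04 and the cold receptor gene Trpm8 at 0.15. None of the 11 passed the adjustment over all genes, and closely related Mrgpr genes may share probes. The count fell from 4 to 2 without LBP replicate 3, PBS replicate 1 or PBS replicate 2, to 1 without PBS replicate 3, and to 2 with the arrays shifted by the sensory neuron markers. The 4 neurotrophin receptor genes, which these factors also regulate, ranged from -0.14 (Ngfr) to 0.04 (Ntrk3), with 0 of 4 at an unadjusted p under 0.05.

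**Figure D4:**
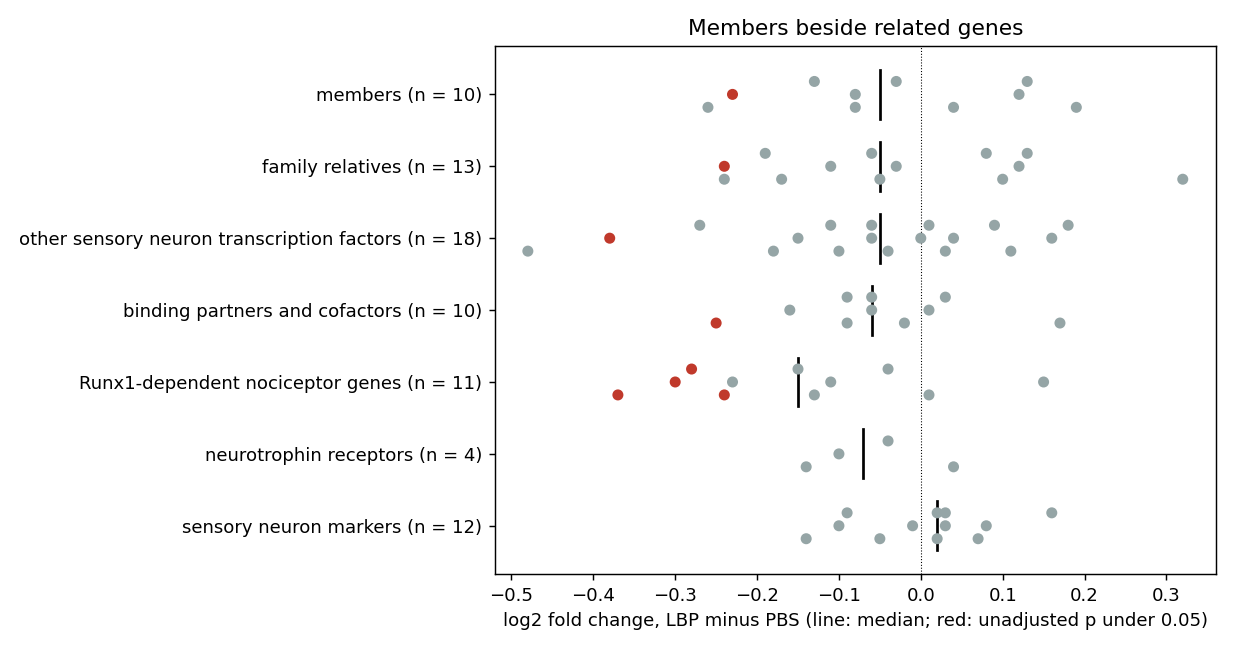
Log2 fold change of LBP against PBS (x axis) for the members and 6 lists of related genes (rows), 1 point per gene, with red points for an unadjusted limma p under 0.05 and black lines for the median of each list. The 4 red points of the Runx1-dependent list lie between -0.37 and -0.24, and its median is -0.15.

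Genes whose pattern over the 6 arrays was most like that of Drgx were Itgb6 (Pearson r = 0.987), Rell1 (r = 0.982) and Tmem45a (r = 0.981), out of 18466 genes above the lower quartile of brightness. Of these genes, 129 had an r over 0.9 and 114 an r under -0.9. Drgx was picked by its p-value and hardly varied within groups. A high r therefore mainly marks another gene that was lower after LBP, and not a shared pattern within groups. Rell1 was at 8.05, 8.09 and 8.10 after LBP and 8.30, 8.39 and 8.32 after PBS. Itgb6 and Tmem45a were dim, below the background mark. Itgb6 was at 5.27 to 5.32 after LBP and 5.51 to 5.53 after PBS. Tmem45a was at 5.08 to 5.14 after LBP and 5.42 to 5.61 after PBS.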

How the data were processed

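The authors preprocessed the arrays in R (expresso, MAS5) and normalized them by quantiles. Their methods give a rule for omitting arrays that correlate poorly with the others, and name no array that was omitted. The deposited values are log2 intensities, 1 per gene symbol and array. No version or genome build was given in the sources used here. The deposited table also holds the authors' fold changes and p-values, which were not used, nor were 3 columns that compare single arrays. Of 24647 genes, 24 carried a date in place of a symbol and were not tested. Values ran from 2.02 to 13.8, array medians from 6.45 to 6.46, and correlations between arrays from 0.990 to 0.994. No depth applies to arrays, and their number limits the precision.

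All 24623 genes entered a linear model in limma 3.58.1 (lmFit, eBayes, R 4.3.3), with treatment as the single factor (prior of 5.90 degrees of freedom), two-sided tests and Benjamini-Hochberg adjustment. The code was tested on simulated data. Exact permutation tests used scipy 1.17.1. Gene names, coordinates and promoter sequences came from RefSeq (GRCm38.p6), which matched Drgx and 2 listed genes (Adgre1, Spi1) through older symbols. Members, lists and tests were chosen with earlier results of these data known. The text names all members, the genes of each list at an unadjusted p under 0.05, the extremes of the transcription factor lists and the 3 genes most correlated with the member of smallest p. Isl2, Etv1, Maf, Shox2, Mafa, Cux2, Cbfb, Ehmt2, Mrgprd, P2rx3, Trpm8, the neurotrophin receptors, Mobp, Gad1, Lbx1, Pax2, Gm3893 and 4933409K07Rik were named after their values were seen. Some genes that the rule covers are not reported here. The alternatives were a replicate block, dim genes left out, limma's trend, arrays centred on the median or shifted by sensory neuron markers, and each array left out in turn.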

Additional observations from a re-analysis of the deposited data

How the results depend on the processing

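The number of members at an adjusted p under 0.05 was 0 under every alternative run. The number at an unadjusted p under 0.05, 1 with all arrays, was 0 with arrays shifted by the sensory neuron markers and ranged from 0 to 2 with 1 array left out. The number whose groups did not overlap, 2 with all arrays, was 3 with arrays shifted by the sensory neuron markers. It ranged from 2 to 4 with 1 array left out, where fewer arrays make overlap rarer. The share of all genes is not given for these settings. Of all genes, 2 passed an adjusted p under 0.05, 4 with the replicate block, 4 with dim genes left out, 4 with limma's trend, 0 with the variance of each gene alone, and 1 to 2 with 1 array left out. The count of listed genes at an unadjusted p under 0.05 was 14 of 133, beside 4.72% of all genes. It was 26 with the replicate block, for which the share of all genes is not given. The Runx1-dependent count of 4 was 2 with the shift by neuron markers and 1 to 4 with 1 array left out. Of 120 member changes under alternatives, 109 kept their direction and their side of an unadjusted p of 0.05, and 4 changed sign: Runx1 (-0.03 to 0.02), Tlx3 (-0.08 to 0.03) and Neurod1 (0.04 to -0.09 and -0.05), each with 1 array left out. The ranges over single arrays left out were -0.06 to 0.02 for Runx1, -0.20 to 0.03 for Tlx3 and -0.09 to 0.15 for Neurod1. Except where stated, the cause was not tested. Replicate numbers were not taken as pairs in the main model. Deviations of same-numbered arrays correlated at 0.109, -0.035 and 0.084, and those of other pairs between -0.243 and 0.172. These few values cannot settle whether the numbers pair the samples. With the block Drgx was still under an unadjusted p of 0.05 in limma.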

Other observations

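Within each array, the difference between Pou4f1 and Drgx is not altered by a shift of the whole array. Log2 intensity of Pou4f1 minus that of Drgx was 0.30, 0.32 and 0.29 on the LBP arrays and 0.08, -0.24 and -0.02 on the PBS arrays. The same difference for Isl1 was 1.69, 1.54 and 1.59 on the LBP arrays and 1.26, 1.16 and 1.34 on the PBS arrays. In both pairs every LBP value was above every PBS value. Both pairs subtract Drgx, the member of smallest p, whose own groups were 0.20 apart, whereas those of Pou4f1 and Isl1 overlapped. The separation is therefore no support beyond the values of Drgx. The pairs were chosen after their values were seen, no test was run on them, and the sizes describe unequal change and not the level of either RNA.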
